A study of Homo sapiens with 4 samples.

Results

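The cytosolic RNA and DNA sensors examined here are 10 genes: DDX58 (RIG-I), IFIH1 (MDA5), DHX58 (LGP2), MAVS, EIF2AK2 (PKR), ADAR, ZBP1, IFI16, STING1 and TBK1. They were taken by gene name, and all 10 were found among the 16490 genes of the expression table, as 19 RefSeq transcripts whose FPKM values were summed per gene and library. The samples were MV4-11 cells, a human acute myeloid leukemia line, in which a lentiviral vector expressed either the control hairpin sh-NC or sh-CEBPG#3, a hairpin against the transcription factor CEBPG. Cells of both groups had passed puromycin selection, each group has 2 libraries, and a single CEBPG hairpin was sequenced. CEBPG itself was measured at 30.4 and 33.6 FPKM with sh-NC and at 19.2 and 17.1 FPKM with sh-CEBPG#3, which is 56.8% of the control mean (log2 fold change -0.78, SE 0.09, limma adjusted p = 8.88e-05). The totals were 364353 to 389766 FPKM per library. The depth of the libraries is unknown, as FPKM values carry no read counts. Nothing in the labels ties the 2 libraries of a group to separate cultures, so the p-values measure the spread between these libraries, which may be technical.

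RNA or DNA in the cytosol is a sign of infection or of damaged compartments, and cells detect it with dedicated proteins. RIG-I and MDA5 bind foreign-looking RNA and signal through the mitochondrial adaptor MAVS, while cyclic dinucleotides made upon DNA binding act on STING1. Both routes reach the kinase TBK1, which leads to production of type I interferon, and several of the sensors are themselves interferon-induced genes. PKR stops translation upon binding long RNA duplexes, ADAR edits such duplexes so that they no longer trip the sensors, and ZBP1 couples unusual nucleic acids to cell death. In myeloid cells this system is part of antiviral defence and of inflammatory signalling.

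In the sh-CEBPG#3 libraries 7 of the 9 sensor genes that could be tested were higher than in the sh-NC libraries and 1 was lower, each at an adjusted p under 0.05. The largest log2 fold changes were those of IFIH1, EIF2AK2 and IFI16, at 4.03 to 5.22 times the control mean. DHX58 was at 4.36 times its control mean, with a smaller log2 fold change because 1 FPKM was added before taking logs. TBK1 did not pass the test and MAVS was lower. Of all 12142 genes tested, 18.5% were higher and 23.8% were lower by the same rule. The study's threshold was p under 0.05 with an absolute log2 fold change above 1, applied here to limma's unadjusted p. By it 5 sensor genes were higher (DDX58, IFIH1, DHX58, EIF2AK2 and IFI16), where 2.36% of all genes tested were higher. Both sh-CEBPG#3 libraries lay above both sh-NC libraries for 7 of the 9 tested members, as they did for 31.5% of all genes tested, and for ZBP1, which was too low to be tested. The median log2 fold change of the 9 tested members was 1.15, beside -0.04 over all genes. These are bulk samples, in which a change in the share of cells of one kind cannot be told apart from a change in RNA per cell.

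Promoter sequences of the members are shown because 4 of the 5 genes past the study's threshold hold GAAA letters in close pairs. IFIH1 and EIF2AK2 hold them with a gap of 2 bases, the spacing that interferon-activated factors are known to bind. DDX58 and IFI16 hold them with a gap of 1 only, and no window was given for DHX58. RefSeq promoter windows on GRCh38.p14, which run from 250 bases before to 50 bases after a gene's start, were given for 7 members (10 windows in all, since some genes have several starts). The windows were searched on both strands for GAAA followed by GAAA after a gap of 1 or 2 bases. The form with a gap of 2 is the core of an interferon-stimulated response element. The gap of 1 was included after the letters of these windows had been read. The matches stand in capitals (TTTC is GAAA on the other strand), each sequence is read 5′ to 3′ on the strand of its gene, and each is given with about 30 bases on either side, ending at most 20 bases past the start.
DDX58, chr9:32526361-32526429, minus strand: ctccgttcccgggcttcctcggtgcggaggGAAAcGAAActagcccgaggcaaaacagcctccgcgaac
IFIH1, chr2:162318666-162318873, minus strand: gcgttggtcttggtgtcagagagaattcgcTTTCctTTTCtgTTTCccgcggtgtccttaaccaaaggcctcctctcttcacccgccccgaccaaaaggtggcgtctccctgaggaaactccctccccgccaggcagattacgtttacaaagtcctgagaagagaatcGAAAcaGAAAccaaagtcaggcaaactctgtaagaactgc
EIF2AK2, chr2:37156961-37157016, minus strand: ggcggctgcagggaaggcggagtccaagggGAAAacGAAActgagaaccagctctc
IFI16, chr1:159009823-159009891, plus strand: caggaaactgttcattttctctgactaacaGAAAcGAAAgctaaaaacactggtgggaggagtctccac
The DDX58 match begins 203 bases before the start and has a gap of 1. IFIH1 holds 3 matches with a gap of 2, of which a pair beginning 159 and 153 bases before the start lies on the other strand and shares 4 letters, and another begins 21 bases before the start. In EIF2AK2 the match begins 6 bases before the start and runs across it, and in IFI16 it begins 54 bases before the downstream of its 2 starts. The windows of MAVS, TBK1 and ADAR and the upstream window of IFI16 hold no match, which says only that these letters are not in those 300 bases. Of all 35116 RefSeq promoter windows 6.4% hold a match, 3.12% with a gap of 1 and 3.57% with a gap of 2, where 4 of the 10 members' windows do. With a gap of 2 alone it is 2 of the 10 windows, those of IFIH1 and EIF2AK2, and since the gap of 1 was added after reading them, the larger count is a description only. A match describes the letters only, and binding was not measured here. No window was used for DHX58, ZBP1 and STING1.

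The RIG-I-like receptors, which recognise RNA in the cytosol, were low in the control cells and higher in both sh-CEBPG#3 libraries. DDX58 (RIG-I, which binds short RNA ends carrying phosphates; RefSeq, GRCh38.p14, chromosome 9 from 32455302 to 32526196, the build of all positions here) stood at 3.12 and 2.95 FPKM with sh-NC and at 9.86 and 9.37 FPKM with sh-CEBPG#3. Its groups did not overlap, and its log2 fold change was 1.40 (SE 0.09, 95% interval 1.19 to 1.60, limma adjusted p = 2.98e-06). IFIH1 (MDA5, which binds long RNA duplexes; chromosome 2 from 162267074 to 162318684) stood at 1.47 and 1.92 FPKM against 9.17 and 8.50 FPKM. Its mean rose from 1.69 ± 0.319 to 8.84 ± 0.477 FPKM (SD, n = 2 per group), the largest change among the members, with a log2 fold change of 1.87 (SE 0.11, 95% interval 1.62 to 2.12, limma adjusted p = 1.42e-06). Only 65 of the 12142 genes tested had a larger positive change on this scale. DHX58 (LGP2, a related helicase that lacks the signalling domains and tunes the other receptors; chromosome 17 from 42101411 to 42112714) stood at 0.434 and 0.689 FPKM against 2.57 and 2.33 FPKM, again without overlap. Its mean was 4.36 times the control mean, while its log2 fold change was 1.15 (SE 0.13, limma adjusted p = 0.000109), since the 1 FPKM added before taking logs compresses low values. With 0.01 FPKM added in its place the DHX58 change was 2.14 (limma adjusted p = 0.000389).

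**Figure D1:**
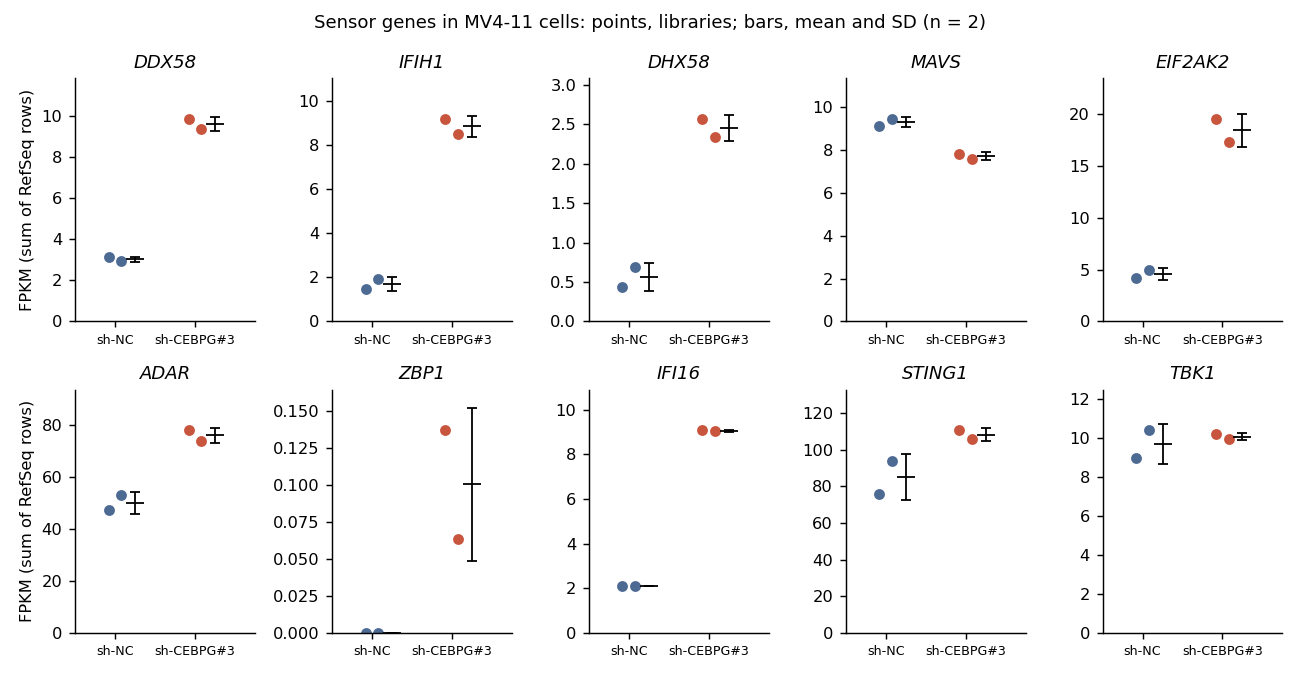
FPKM of each sensor gene (y axis, RefSeq rows summed) in the sh-NC (blue) and sh-CEBPG#3 (red) libraries, with the mean and SD of each group (n = 2) beside the points and a y axis of its own for each gene. IFIH1 lies at 1.47 and 1.92 FPKM in sh-NC and at 9.17 and 8.50 FPKM in sh-CEBPG#3, MAVS is lower in both sh-CEBPG#3 libraries, and the TBK1 points overlap.

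The shared downstream members behaved differently from the receptors. MAVS (the adaptor through which RIG-I and MDA5 signal; chromosome 20 from 3846834 to 3876118, 3 RefSeq rows) stood at 9.12 and 9.45 FPKM with sh-NC and at 7.83 and 7.57 FPKM with sh-CEBPG#3. Both sh-CEBPG#3 libraries were below both controls, at 82.9% of the control mean, with a log2 fold change of -0.24 (SE 0.09, 95% interval -0.43 to -0.05, limma adjusted p = 0.0445). The MAVS call is close to the threshold and was lost when any of the 4 libraries was left out (limma adjusted p = 0.0803 to 0.162, log2 fold change -0.26 to -0.22), and in a fit with a replicate block (limma adjusted p = 0.0987). TBK1 (the kinase that activates IRF3; chromosome 12 from 64452120 to 64502114) stood at 8.97 and 10.4 FPKM against 10.2 and 9.94 FPKM. The TBK1 groups overlapped, and the log2 fold change of 0.05 (95% interval -0.15 to 0.26, limma adjusted p = 0.676) did not pass the test. Without replicate 1 of sh-NC the TBK1 change was -0.043.

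STING1, the adaptor of the DNA route on the endoplasmic reticulum, had the highest FPKM of the members in both groups. Its levels (chromosome 5 from 139475533 to 139482758, 2 RefSeq rows) were 76.0 and 94.0 FPKM with sh-NC and 111 and 105.9 FPKM with sh-CEBPG#3. The groups did not overlap, but the sh-NC libraries differed from each other by more than the sh-CEBPG#3 libraries did, and the mean was 1.27 times the control mean (log2 fold change 0.35, SE 0.10, 95% interval 0.14 to 0.57, limma adjusted p = 0.0143). The STING1 call was lost without replicate 1 of sh-CEBPG#3 (0.32, limma adjusted p = 0.0864) and without the filter on low genes (limma adjusted p = 0.0853), and leaving out a sh-NC library moved its change to 0.20 or 0.50. IFI16 (a nuclear and cytosolic protein of the PYHIN family that binds DNA; chromosome 1 from 158999976 to 159055151, 2 RefSeq rows) stood at 2.09 and 2.08 FPKM against 9.07 and 9.02 FPKM. The spread within each group was far below the difference between them, with a log2 fold change of 1.70 (SE 0.09, 95% interval 1.49 to 1.91, limma adjusted p = 8.49e-07). IFI16 was thus 4.34 times and STING1 1.27 times its control mean, both of the DNA route.

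**Figure D2:**
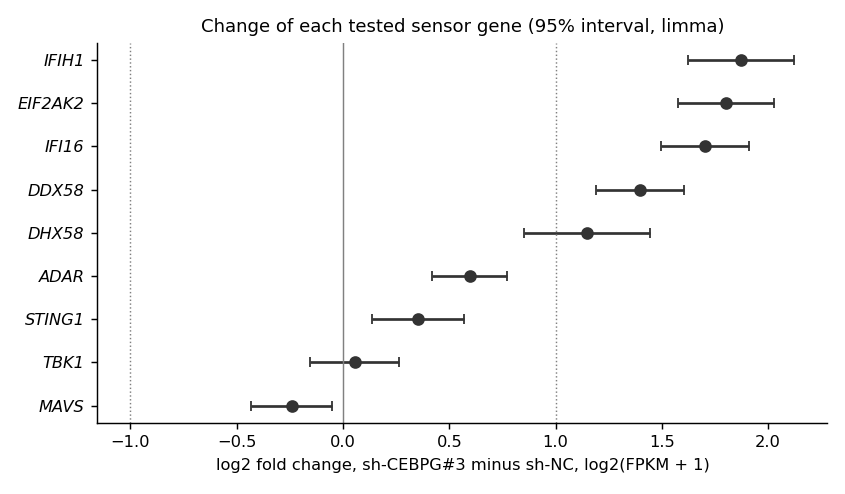
Log2 fold change on the log2(FPKM + 1) scale, sh-CEBPG#3 minus sh-NC, of the 9 tested sensor genes (points) with limma's 95% interval (bars), where dotted lines mark a change of 1 in either direction. IFIH1 is highest at 1.87, the TBK1 interval from -0.15 to 0.26 includes 0, and the MAVS interval ends at -0.05.

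Of EIF2AK2, ADAR and ZBP1, which act in translation arrest, RNA editing and cell death, the first pair rose and ZBP1 was too low to test. EIF2AK2 (PKR, the kinase that halts translation through eIF2α; chromosome 2 from 37099210 to 37156980, 2 RefSeq rows) stood at 4.18 and 4.96 FPKM with sh-NC and at 19.5 and 17.3 FPKM with sh-CEBPG#3. These groups were far apart, 4.03 times the control mean, with a log2 fold change of 1.80 (SE 0.10, 95% interval 1.57 to 2.03, limma adjusted p = 9.96e-07). ADAR (chromosome 1 from 154582057 to 154627997, 5 RefSeq rows) stood at 47.0 and 52.8 FPKM against 77.9 and 73.9 FPKM. ADAR also did not overlap between the groups and was 1.52 times its control mean, with a log2 fold change of 0.60 (SE 0.08, 95% interval 0.42 to 0.77, limma adjusted p = 0.000262). ZBP1 (a sensor of left-handed nucleic acids; chromosome 20 from 57603852 to 57620426) was listed at 0 in both sh-NC libraries, against 0.137 and 0.0637 FPKM with sh-CEBPG#3. That is under the minimum mean of 0.5 FPKM, so ZBP1 was not tested and no fold is given.

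ADAR is made as a long form, p150, from an interferon-induced promoter, and as a shorter, constitutive nuclear form, p110, and the most abundant RefSeq row of each form went in opposite directions. NM_001111, a p150 row, stood at 23.5 and 26.9 FPKM with sh-NC and at 56.9 and 59.6 FPKM with sh-CEBPG#3 (log2 fold change 1.18, SE 0.09, limma adjusted p over all rows = 0.0148). NM_001025107, a p110 row, stood at 18.7 and 15.4 FPKM against 9.49 and 7.72 FPKM (log2 fold change -0.91, SE 0.15, limma adjusted p over all rows = 0.0460). In neither row did the groups overlap. The other p150 rows did not pass the test: NM_015840 was at 4.15 and 9.83 FPKM with sh-NC and at 10.9 and 5.74 FPKM with sh-CEBPG#3, and NM_015841 at 0.531 and 0.671 against 0.437 and 0.657 FPKM. The other p110 row, NM_001193495, was at 0.146 and 0.0843 against 0.146 and 0.182 FPKM, too low to be tested. These 3 rows overlapped between the groups. Summed over the 3 p150 rows the mean was 2.05 times the control mean, and over the 2 p110 rows it was 51.1% of it. The p110 share of the ADAR FPKM was 40.1% and 29.2% with sh-NC and 12.4% and 10.7% with sh-CEBPG#3. These shares depend on how the authors' program, which is not given in the sources used here, divided reads among rows that share exons. When each row was set against the rest of its gene, a test added after the data had been seen, the p110 row NM_001025107 differed by -1.93 on the log2 scale (95% interval -2.93 to -0.94) and the p150 row NM_001111 by 1.67 (95% interval 0.73 to 2.61). Neither passed the adjustment over all rows so compared (limma adjusted p = 0.423 for both).

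Across all members, 15 of the 19 rows were high enough to be tested, and 6 were higher and 1 was lower at an adjusted p under 0.05 in limma, where 4.16% of all 18624 rows tested were higher and 4.08% lower. The 6 higher rows were those of DDX58, IFIH1 and DHX58, NM_001135651 of EIF2AK2, NM_005531 of IFI16 and NM_001111 of ADAR. These row-level calls, higher and lower, were lost when any library was left out. DDX58, IFIH1 and DHX58 have 1 row each, with the same values as their gene, and at the gene level their calls held. For them the loss thus lies in the row-level fit and not in their values. How many of all rows kept a call in those fits is not given here. Of the 10 member rows compared with the rest of their gene in limma, 0 passed an adjusted p under 0.05 and 2 an unadjusted p under 0.05, where 0.0364% of all 10976 rows so compared passed the adjusted threshold. The 10 are not separate comparisons. IFI16 and STING1 have 2 rows each, which give the same contrast with its sign reversed (1.04 and -1.04 for IFI16, 1.35 and -1.35 for STING1). The 2 at an unadjusted p under 0.05 are NM_001111 and NM_001025107 of ADAR, each part of the rest of the other. Rows of a gene can share exons, and some rows differed between the libraries of a group by more FPKM than their gene's sum. With sh-CEBPG#3 NM_015840 of ADAR did, at 10.9 and 5.74 FPKM where the sum was 77.9 and 73.9 FPKM. The STING1 row NM_001301738 was at 7.66 and 49.1 FPKM with sh-NC and at 49.9 and 54.8 FPKM with sh-CEBPG#3, while NM_198282 was at 68.4 and 44.9 against 60.8 and 51.2 FPKM and overlapped. The IFI16 row NM_001206567 was at 0.866 and 0.915 FPKM in sh-NC and at 0.936 and 3.97 FPKM in sh-CEBPG#3, while NM_005531 was at 1.22 and 1.17 against 8.14 and 5.05 FPKM. For IFI16 the sums over the rows agreed between the libraries of a group more closely than the rows did. With the most abundant row in place of the sum, the STING1 change was 0.01 (limma adjusted p = 0.981) and the ADAR change was 1.18 (limma adjusted p = 0.00311).

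**Figure D3:**
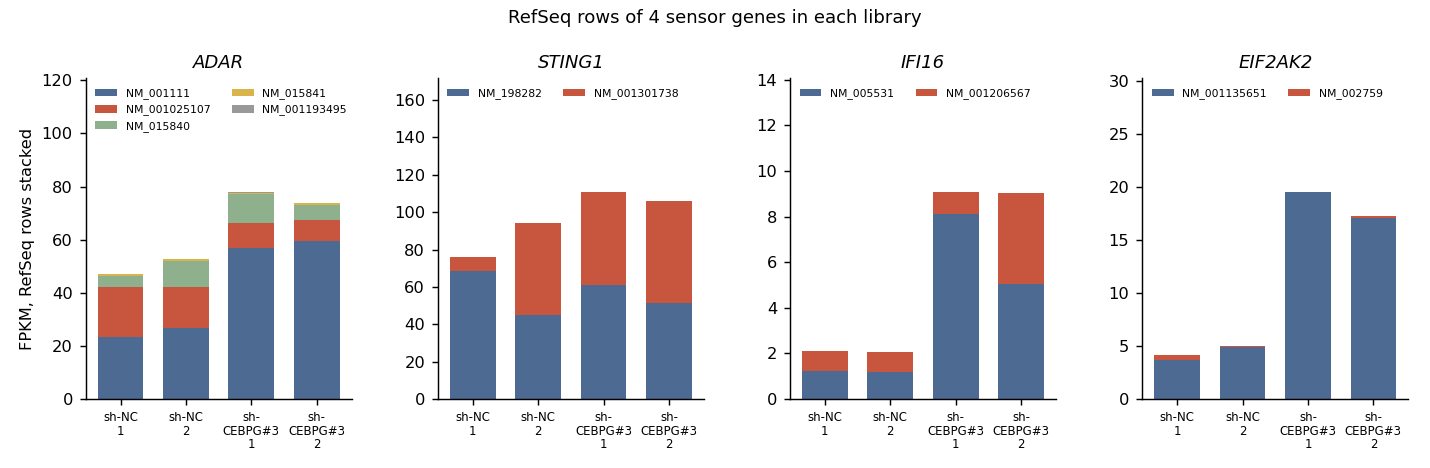
FPKM (y axis, a scale for each gene) of the RefSeq rows of ADAR, STING1, IFI16 and EIF2AK2, stacked in each of the 4 libraries (x axis). The p110 row NM_001025107 of ADAR falls from 18.7 and 15.4 to 9.49 and 7.72 FPKM while NM_001111 rises, and the STING1 row NM_001301738 is at 7.66 FPKM in replicate 1 of sh-NC and between 49.1 and 54.8 FPKM in the other libraries.

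On the FPKM scale, which is per transcript length, the sh-NC levels ran from STING1 through ADAR, TBK1, MAVS, EIF2AK2, DDX58, IFI16, IFIH1 and DHX58 down to ZBP1. Among neighbours in that order only TBK1 and MAVS overlapped between their libraries. In the sh-CEBPG#3 libraries the order was STING1, ADAR, EIF2AK2, TBK1, DDX58, IFI16, IFIH1, MAVS, DHX58 and ZBP1, in which only IFI16 and IFIH1 overlapped. MAVS thus stood above DDX58, IFIH1, IFI16 and EIF2AK2 in the control libraries and below all of them in the sh-CEBPG#3 libraries. The genes whose log2 levels were nearest to those of IFIH1 over the 4 libraries were GBP5 (Euclidean distance 0.23), JUN (0.30), PTGS1 (0.32), IFI16 (0.34) and IL10RA (0.38). Of these only IFI16 is a member. The distance depends on the level of a gene as well as on its change.

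The genes that work with the sensors were counted in lists chosen by function. Over all lists 104 genes were named, 81 were found in the table and 78 were tested. Of these 25 were higher, 14 were lower and 39 were not called in limma, where 18.5% of all genes were higher and 23.8% lower. Over the 78 list genes the median change was 0.03 on the log2 scale, beside -0.04 over all genes and 1.15 for the sensors. In RIG-I-like receptor signalling 8 of 22 tested genes were higher and 3 lower (median 0.11). The higher ones were led by USP18, which removes ISG15 from proteins and restrains interferon signalling (2.79 ± 0.311 to 16.3 ± 0.505 FPKM, SD, n = 2, log2 fold change 2.19), IRF7, an interferon-inducing transcription factor (1.67), the helicase DDX60 (1.38) and TRIM25, a ubiquitin ligase of the RIG-I route (0.87). Lower were RNF125, a ubiquitin ligase that marks RIG-I for degradation (-0.64), LRRFIP1 (-0.42) and PCBP2, a negative regulator of MAVS (-0.38). DDX3X was the most abundant that was not called, at 53.8 and 59.1 FPKM against 56.1 and 52.5 FPKM.

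In DNA sensing and STING signalling 4 of 17 tested genes were higher and 5 lower (median -0.13), shares near the 18.5% and 23.8% of all genes. IFI35 rose from 10.8 and 10.4 to 36.4 and 35.7 FPKM (log2 fold change 1.68), MNDA, a myeloid relative of IFI16, changed by 0.85, CGAS, the enzyme that makes the STING1 ligand, by 0.46, and the calcium sensor STIM1 by 0.29. Lower were PRKDC, the catalytic subunit of DNA-PK (-0.54), LRRC8A, a subunit of channels that pass the STING1 ligand (-0.38), the nuclear DNA-binding protein HMGB1 (-0.34) and XRCC6, the Ku70 subunit (-0.33), while XRCC5, its Ku80 partner, at 91.1 and 93.3 against 84.7 and 78.2 FPKM, was not called. CGAS itself stood at 21.5 and 24.2 against 33.9 and 29.8 FPKM, without overlap between the groups.

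PKR's partners and the translation arrest genes mostly did not pass the test: 1 of 14 was higher and 2 were lower (median -0.0045). Over all genes tested, 18.5% were higher and 23.8% were lower. DNAJC3, an inhibitor of PKR, changed by 0.23 and the eIF2α phosphatase subunits PPP1R15A and PPP1R15B by -0.32 and -0.25, while the stress factor ATF4 stood at 259 and 269 against 269 and 256 FPKM and was not called. Of the genes that act with ZBP1 in necroptosis, 3 of 7 were higher and 1 was lower (median 0.21). RIPK3, the kinase that ZBP1 binds, stood at 1.98 and 2.60 against 4.08 and 4.84 FPKM (log2 fold change 0.73), CASP8 changed by 0.45, MLKL, which breaches the membrane, by 0.36 and CASP6 by -0.44, and FADD was the most abundant gene not called. EIF2AK2 itself was at 4.03 times its control mean, while 11 of the 14 genes of the PKR and translation arrest list were not called.

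Nucleases and related enzymes that keep the cell's own nucleic acids from the sensors changed in both directions. Of the 12 tested, 5 were higher and 3 lower (median 0.0047), where 18.5% of all genes tested were higher and 23.8% lower. SAMHD1, which hydrolyses deoxynucleotides, rose from 40.7 and 44.2 to 88.5 and 83.3 FPKM (log2 fold change 1.00), the DNA exonuclease TREX1 changed by 0.93, the lysosomal nucleases DNASE2 and RNASET2 by 0.33 each, and the RNase H2 subunits RNASEH2B and RNASEH2A by -0.74 and -0.61. ADARB1, the other active editing enzyme of the ADAR family, changed by -0.37, in the direction opposite to ADAR, and the third RNase H2 subunit RNASEH2C was not called. Among the interferon receptors and the factors that carry their signal, IRF9, a subunit of the factor that binds interferon-stimulated response elements, stood at 3.99 and 4.13 against 31.4 and 29.9 FPKM (log2 fold change 2.64), and STAT2 changed by 1.51. The receptor chain IFNAR2 changed by 0.28 and the kinase TYK2 was not called. Of the 21 interferon ligands looked up, only IFNB1 was found with values. IFNB1 stood at 0.0818 and 0 FPKM in sh-NC and 0.0730 and 0.188 FPKM in sh-CEBPG#3, too low to be tested.

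**Figure D4:**
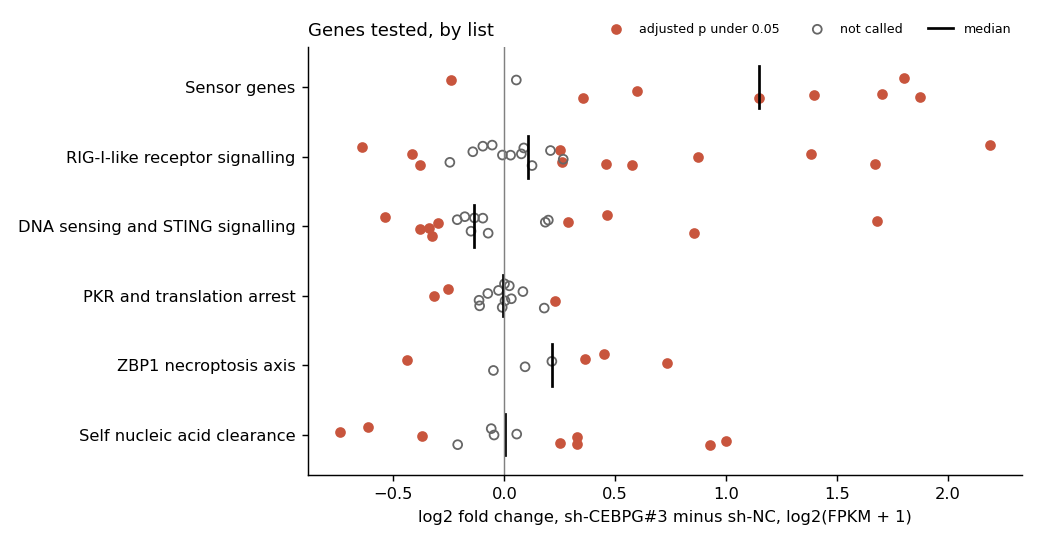
Log2 fold change on the log2(FPKM + 1) scale, sh-CEBPG#3 minus sh-NC, of each tested gene, for the sensor genes and the lists of genes that work with them (rows), filled where the limma adjusted p was under 0.05, with a bar at the median. The sensor genes have a median of 1.15, while the medians of the other lists shown lie between -0.13 and 0.21. The list of interferon receptors and the factors that carry their signal, with a median of 0.28, is not drawn.

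The cells were checked against their markers. All 10 myeloid leukemia markers were measured, CD33, FLT3, MPO and SPI1 among them at 26.8 FPKM or more in every library. Others were less abundant, with ITGAM, CSF1R and MEIS1 at 8.70 FPKM or less in every library. Their summed level ran from 941 to 1030 FPKM with sh-NC and from 3488 to 3669 FPKM with sh-CEBPG#3, mostly through LYZ. Of the 10, 6 were higher and 2, MEIS1 and HOXA9, were lower, where 18.5% of all genes tested were higher and 23.8% lower. These changes lie in the same libraries as those of the sensor genes. Of other cell types, 2 of 6 T and NK cell markers were found with values (summed 14.2 to 15.1 against 11.3 to 12.7 FPKM, nearly all NCAM1). So were 3 of 4 B cell markers (1.03 to 1.15 against 1.51 to 1.52 FPKM). The same holds for 2 of 4 epithelial markers, both keratins (12.1 to 12.9 against 14.8 to 16.0 FPKM). Of the endothelial markers 2 of 4 were found (18.5 to 21.8 against 40.8 to 43.4 FPKM, nearly all PECAM1, which leukocytes also express). Only 1 of 4 fibroblast markers (at most 0.0781 FPKM) and 0 of 4 erythroid markers were found. Of these other markers KRT8 (log2 fold change 1.12) and PECAM1 (1.03) were called higher in limma and NCAM1 (-0.28) lower. KRT18 and CD79A were not called, and the rest were too low to be tested. The part of these shifts in the values of the sensor genes was not tested.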

How the data were processed

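The data are RNA-seq of MV4-11 cells, with 2 libraries each for sh-NC and sh-CEBPG#3. The authors extracted total RNA with Trizol, prepared libraries with an Illumina TruSeq kit and mapped filtered reads with HISAT, and deposited FPKM values per RefSeq transcript. The submitters' processing notes name HISAT2 2.0.5 and the build hg38, while the program behind the FPKM values is not given in the sources used here. Of 28780 rows, 28581 had values. They were summed by symbol into 16490 genes, and the 12142 with a mean of at least 0.5 FPKM were tested on log2(FPKM + 1) in limma 3.58.1 (R 4.3.3; lmFit, eBayes with trend, two-sided) with Benjamini-Hochberg adjustment. The same fit was run on 18624 single rows. DESeq2, used in the study, needs counts and was not run. An exact permutation test (two-sided) of 2 against 2 libraries cannot go below 0.333, so the p-values rest on limma's variance model. A row was compared with the rest of its gene in limma without the trend. Scripts were tested on simulated data. Promoters were read with Python 3.11.15.

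The members, lists and rules were chosen with earlier results of these data known. Named were all members, CEBPG, the called genes of each list up to the 4 largest changes per direction, its most abundant gene not called, and the 5 genes nearest to IFIH1. Some results under this rule are not reported here. Alternatives changed the pseudocount (0.1 or 0.01), the filter (none, or 1 FPKM) and the normalization (quantile, or equal totals), left out the trend or each library in turn, took the most abundant row of a gene, or added a replicate block.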

Additional observations from a re-analysis of the deposited data

How the results depend on the processing

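Over the alternatives run, 6 or 7 sensor genes were higher (6 where STING1 lost its call) and 5 or 6 passed the study's threshold. DDX58, IFIH1, DHX58, EIF2AK2, ADAR and IFI16 were called higher in limma in every fit of gene sums and by their most abundant row. In the fit over all single rows fewer calls held, also for DDX58, IFIH1 and DHX58, whose only row has the values of the gene. MAVS was not called in limma without the trend (adjusted p = 0.0560), without the filter (0.0677), by its most abundant row (0.0789) or with the replicate block (0.0987), so the number of sensor genes lower was 0 in these and in each fit with a library left out (0 to 0). The median change of the sensor genes was 0.87 without the filter, where ZBP1 enters, 1.66 and 1.63 with pseudocounts of 0.01 and 0.1, and 1.03 to 1.27 with a library left out. TBK1 ran from -0.043 to 0.15 with a library left out, and was negative without replicate 1 of sh-NC. Sensor rows higher numbered 3 without the trend, 1 with the replicate block and 0 with any library left out (0 to 0), and rows lower numbered 0 without the trend, without the filter, with a pseudocount of 0.01, with the replicate block and with any library left out (0 to 0). List genes higher numbered 15 by the most abundant row, and list genes lower 22 with equal totals, 9 by the most abundant row and 7 to 16 with a library left out, the 7 without replicate 2 of sh-CEBPG#3. The replicate numbers are shared by the groups, but deviations of same-numbered libraries correlated at only 0.0606 across genes, so they were not treated as pairs. A fit with a library left out assumes that the lone library varies like the other group. The FPKM scale gives no depth, so counting error could not be set apart, and with a single hairpin an effect of CEBPG cannot be told apart from another effect of that hairpin.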
